A study of Mus musculus with 4 samples.

Results

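Genes of the smooth muscle contractile apparatus were followed in mouse caecal tissue as a named set of 35 genes, out of 22180 genes with a probe set of their own on the arrays. The members were taken by symbol, and a gene with several probe sets was read from the one with the highest mean. All 35 members had such a probe set, and only Kcnma1 and Smtn had 2. A gene entered a comparison if it reached, on at least 1 array compared, the median of the probe sets that name 1 gene, which lay between 2.99 and 3.01 log2 units. Of the 35 members, 34 passed over the 4 arrays. Mylk4 missed that median by 0.11 log2 units, while Itga8 and Ldb3 exceeded it by 0.04 and 0.05.

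Each of the 4 groups was 1 Affymetrix array of RNA pooled from 6 mice chosen on RNA quality. The mice were C57Bl/6 aged 21 weeks, either wild type (WT) or apoE knock-out (KO), and the chow of every group was low in n-3 polyunsaturated fatty acids (an n-3 PUFA depleted diet). The prebiotic groups received Orafti®P95 in the last 15 days, 250 mg daily for each mouse, and the other groups received none. The labels of the WT arrays conflict: their descriptions name the opposite diet from their titles and other fields. WT diets below follow the titles, and the counts over the members and the calls that need them are also given with the WT arrays exchanged. The values of a single gene by WT diet are by title only, unless said otherwise. No group has a replicate, so no p-value below measures the spread between like pools. In the genotype test the error comes from the diet difference within each genotype. In the prebiotic test it comes from how far the prebiotic difference differs between the genotypes. In both tests limma then draws each gene's error towards a trend over all genes. An SE below is thus not the gene's own spread. For Tagln the prebiotic difference in KO less that in WT was only -0.02, while the SE of its prebiotic difference was 0.09.

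Smooth muscle of the gut wall contracts when calcium activates myosin light chain kinase, which phosphorylates the regulatory light chain so that myosin can pull on actin. Myosin phosphatase removes that phosphate, and dense bodies, adhesion plaques and desmin filaments carry the force from cell to cell. Most of these genes are switched on by serum response factor (SRF) with its partner myocardin, through short DNA elements called CArG boxes. In the caecum, this muscle forms the muscularis propria and the thin muscularis mucosae.

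Array medians over all probe sets lay between 2.92 and 2.93, and any 2 arrays correlated across probe sets with a Pearson r of 0.984 to 0.988. Apoe had 3.90 and 4.09 on the WT arrays and 2.83 and 3.13 on the KO arrays, lower on both KO arrays, although whether its probe set lies in the deleted part is not known here. Markers of colon epithelium reached 12.2 log2 units. None of 12 skeletal muscle markers exceeded 3.53 and none of 9 cardiac markers exceeded 3.96, none being more than 1 log2 unit above the probe set median.

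Read by array, the members were highest in the KO caecum without prebiotics and lowest in the WT caecum titled with prebiotics. The KO array without prebiotics held the highest of the 4 values for 22 of the 34 members, against 22.4% of all 13083 genes. The WT array titled with prebiotics held the lowest for 27 of 34, against 23.5% of all genes. The sum of the members' values on the linear scale was 6937 on the WT array titled without prebiotics, 5788 on that titled with them, 8206 on the KO array without and 7262 on the KO array with prebiotics. Such a sum is weighted towards the brightest probe sets. In pooled tissue, fewer muscle cells and less RNA per muscle cell cannot be told apart.

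**Figure D1:**
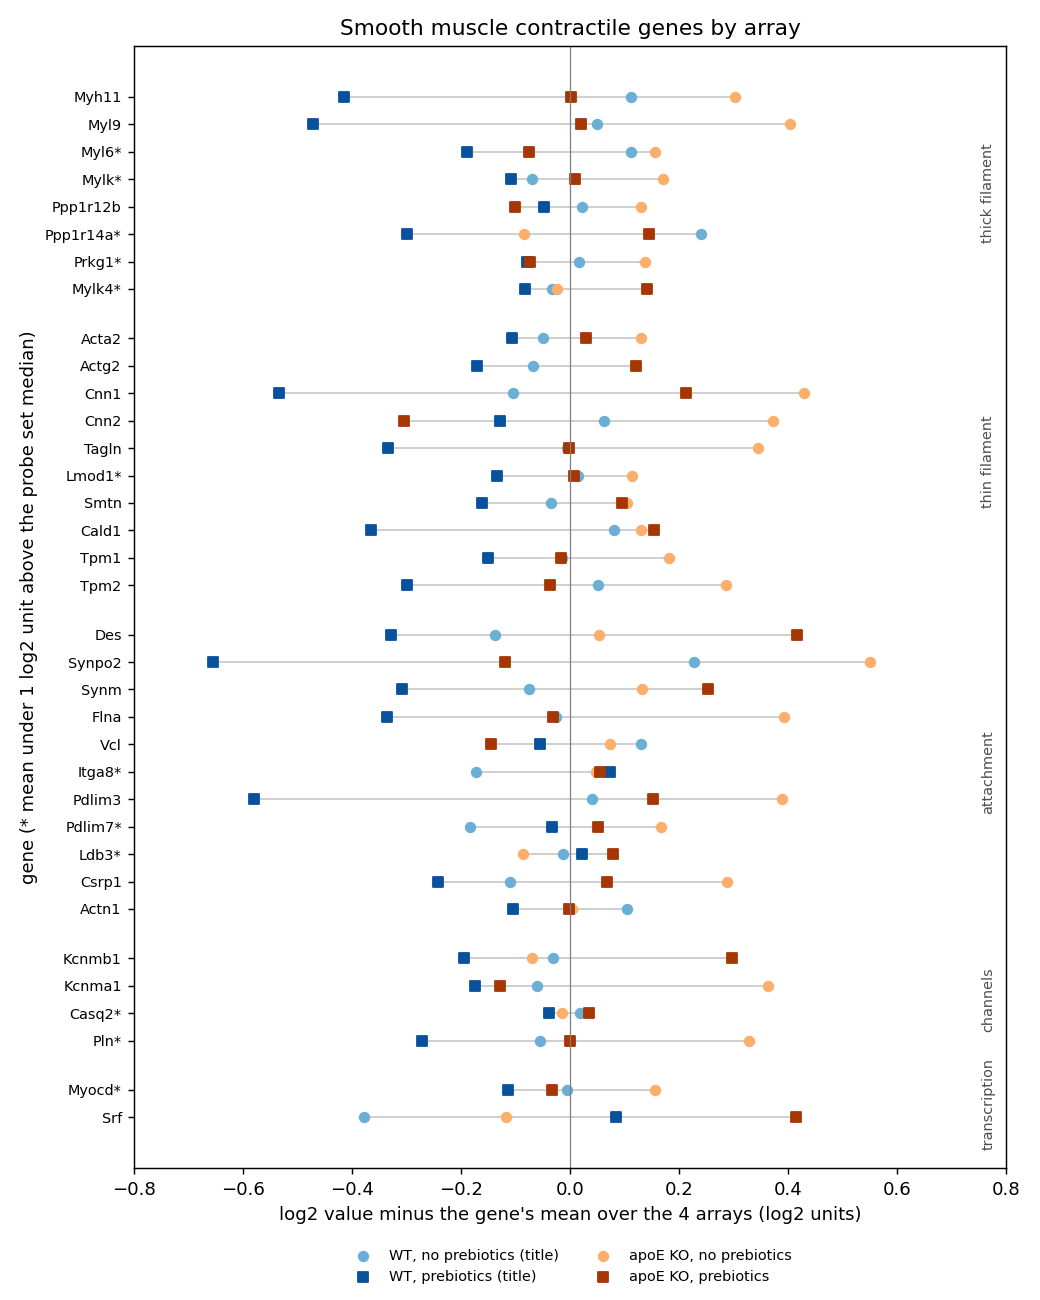
Log2 value of each of the 35 members on each of the 4 arrays, less that gene's mean over the arrays, grouped by role; circles are arrays without and squares arrays with prebiotics, with WT diets by title. The dark blue squares (WT titled with prebiotics) form the left edge for most genes and the light orange circles (KO without prebiotics) the right edge, while Srf has its lowest value on the WT array titled without prebiotics.

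Values are given below in a fixed order, as log2 values on the WT array titled without prebiotics, the WT array titled with them, the KO array without and the KO array with prebiotics. Signals of different probe sets were not compared with each other. The mean of 12 members lay less than 1 log2 unit above the probe set median (Myl6, Mylk, Mylk4, Ppp1r14a, Prkg1, Lmod1, Itga8, Pdlim7, Ldb3, Casq2, Pln and Myocd). Differences that close to background are compressed on such arrays, and a low value describes the probe set.

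KO tissue had higher values than WT tissue for nearly the whole set. Over both diets, 32 of 34 members were higher in KO against 52.9% of all genes, and the median log2 difference was 0.22 against 0.01 over all genes. With each array centred on the median of its genes, 30 of 34 were higher. This median fell to 0.13 without the WT array titled with prebiotics and to 0.13 without the KO array without prebiotics. Both KO arrays lay above both WT arrays for 13 of 34 members, against 16.2% of all genes, and below them for 0, against 14% of all genes. In limma, 0 members were called at an adjusted p under 0.05, as were 0% of all genes in either direction, while 3.29% of all genes had an unadjusted p under 0.05. At an unadjusted p under 0.05, 5 members were higher (Cnn1, Des, Synm, Pdlim3 and Csrp1) and 0 lower, against 1.92% and 1.37% of all genes.

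By the WT titles, the genotype difference appeared at each diet. Without prebiotics, 28 of 33 members were higher in KO against 51.1% of all genes and 5 lower against 48.8%, with a median of 0.20 against 0.01. With prebiotics, 29 of 33 were higher against 54.2% of all genes and 4 lower against 45.7%, with a median of 0.26 against 0.02. A difference of 1.5-fold or more in either direction was reached by 0 members without prebiotics, where 2.37% of all genes reached it. With prebiotics 3 members did (Cnn1, Des and Pdlim3, all higher in KO), against 1.99% of all genes. These pairings rest on the WT titles. With the WT arrays exchanged 31 of 33 members were higher in KO without prebiotics. With prebiotics only 18 of 34 were then higher, so the count of 29 of 33 at that diet rests on the titles. Shares of all genes for the exchanged pairings are not given here. The mean of the WT arrays, and so the comparison over both diets, does not depend on the titles.

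**Figure D2:**
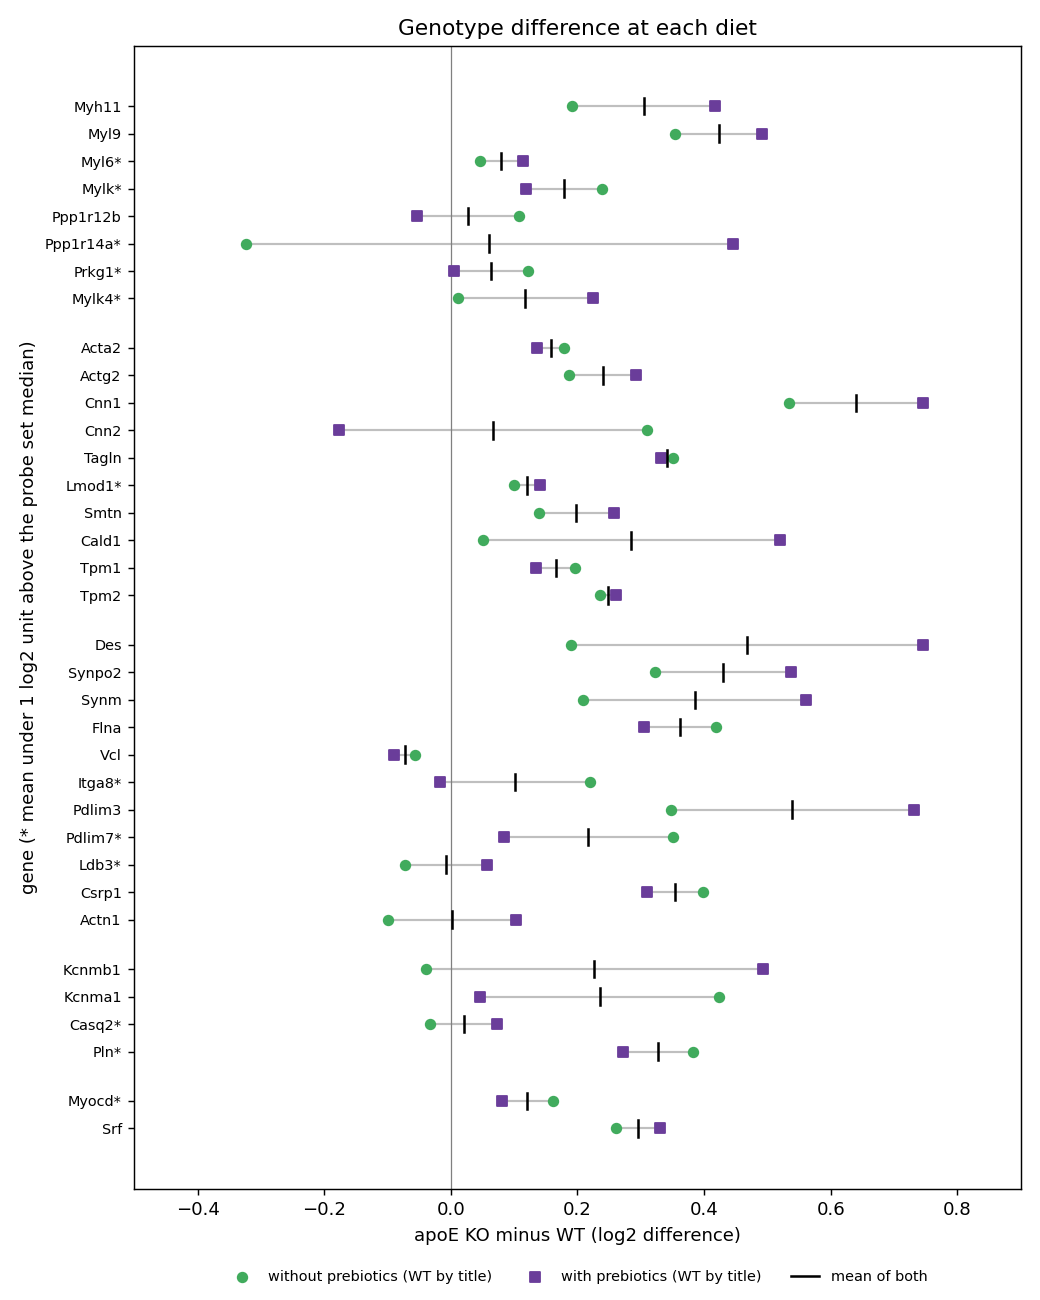
Log2 difference of KO minus WT for each member without prebiotics (green circles) and with prebiotics (purple squares), with the mean of both as a black bar; WT diets follow the titles. Nearly all bars lie right of 0, Cnn1 farthest at 0.64, and Ppp1r14a and Cnn2 are among the members with points on opposite sides of 0. Of the 34 members that passed the filter, 25 were higher in KO at both diets and 1 was lower at both.

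With prebiotics, most members had lower values in KO, and in WT too if the titles hold. In the KO pair, whose labels do not conflict, 24 of 34 members were lower on the prebiotic array against 43.9% of all genes, with a median of -0.19 against 0.04. In the WT pair by title, 30 of 33 were lower against 47% of all genes, with a median of -0.19 against 0.02. Exchanging the WT arrays turns this direction, with 3 of 33 lower. By title, in both pairs 23 of 34 members were lower, against 25.1% of all genes, 3 were higher in both (Srf, Itga8 and Ldb3), against 34.1%, and 8 had opposite signs, against 40.6%. With the WT arrays exchanged, 1 of 34 (Pdlim7) was lower in both pairs, against 19% of all genes. A difference of 1.5-fold or more downwards was reached by Cnn2 and Synpo2 in the KO pair, where 1.15% of all genes reached it, and by Synpo2 and Pdlim3 in the WT pair, where 1.11% did. Upwards, 0 members reached it in either pair, against 2.63% of all genes in KO and 2.07% in WT.

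**Figure D3:**
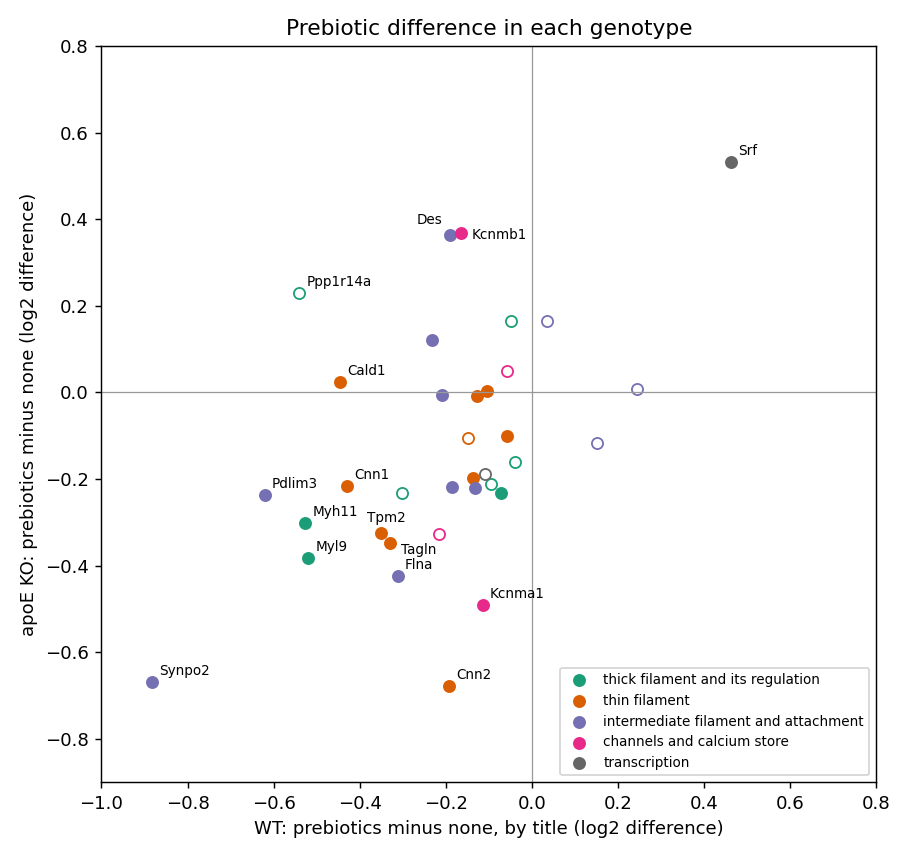
Log2 difference of prebiotics minus none in the KO pair (vertical) against the WT pair by title (horizontal), 1 point for each of the 35 members, coloured by role and open where the mean value lay less than 1 log2 unit above the probe set median. Most points lie below and left of 0, with Synpo2 farthest left at -0.88, Srf farthest to the upper right, and Des, Kcnmb1 and Ppp1r14a lower in WT but higher in KO.

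In the model of prebiotics over both genotypes, with WT by title, 28 of 34 members were lower against 44.9% of all genes and 6 higher against 55.1%, with a median of -0.15 against 0.02. With limma, 3 members fell at an adjusted p under 0.05, against 0.26% of all genes, and 0 rose, against 0.994% of all genes. At an unadjusted p under 0.05, 10 members were lower, against 4.62% of all genes, and 1, Srf, was higher, against 9.13%. With the WT arrays exchanged 0 members were called, 15 of 34 were lower against 47.6% of all genes, and the median was 0.03. The calls therefore rest on the titles, and on simulated data this model also made more false calls than its nominal rate.

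The thick filament and its regulators held 2 of the 3 genes called. Myh11, the heavy chain of smooth muscle myosin, had 9.90, 9.38, 10.09 and 9.79. With prebiotics it fell, the log2 difference being -0.41 (SE 0.07, limma adjusted p = 0.035, lower in 2 of 2 pairs), or 1.33-fold. Myl9, the regulatory light chain that the kinase phosphorylates, had 8.62, 8.10, 8.97 and 8.59. It fell too, by -0.45 (SE 0.09, limma adjusted p = 0.047, lower in 2 of 2 pairs), or 1.37-fold. For both genes the WT array titled with prebiotics was lowest and the KO array without them highest, and in each genotype the prebiotic array was the lower one. For genotype the differences were 0.30 (SE 0.19) for Myh11 and 0.42 (SE 0.20) for Myl9, each higher in KO at either diet and neither past the test. Without the expression filter the adjusted p was 0.074 for Myh11 and 0.096 for Myl9, and without the trend in limma's variance model it was 0.27 and 0.23.

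The other thick filament genes moved less or lay close to background. Mylk, the light chain kinase, had 3.71, 3.67, 3.95 and 3.79, so both KO values exceeded both WT values by a small margin. Ppp1r12b, a targeting subunit of myosin phosphatase, had 4.59, 4.52, 4.70 and 4.47, with overlapping genotypes. Ppp1r14a encodes CPI-17, the inhibitor of myosin phosphatase, and had 3.78, 3.24, 3.46 and 3.69. Its prebiotic difference was -0.54 in the WT pair and 0.23 in the KO pair, from low values, so its order over the arrays differed from that of the myosin chains. Myl6, the essential light chain, and Prkg1, the cGMP-dependent kinase that relaxes smooth muscle, were lower on the prebiotic array of both pairs, by -0.30 and -0.09 in WT and -0.23 and -0.21 in KO. In all, 7 of 7 measured thick filament genes were higher in KO over both diets. By the WT titles 7 of 7 were lower with prebiotics, and with the WT arrays exchanged 3 of 7.

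Among the thin filament genes, 10 of 10 were higher in KO over both diets and 10 of 10 lower with prebiotics by the WT titles, by unequal amounts. With the WT arrays exchanged 4 of 10 were lower with prebiotics. Acta2, the alpha actin shared by vascular and visceral smooth muscle, had 10.71, 10.65, 10.89 and 10.79. Actg2, the gamma actin that dominates in enteric muscle, had 8.53, 8.43, 8.72 and 8.72. For both actins the KO arrays lay above the WT arrays, by 0.16 (SE 0.09) and 0.24 (SE 0.11), and their prebiotic differences were small, -0.08 (SE 0.05) and -0.05 (SE 0.08). The actins are nearly identical to other actins, and the myosin chains also belong to families of related genes. The probe sequences were not at hand, so part of a signal may come from a related transcript, which was not checked.

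Cnn1, calponin 1, which binds actin and restrains the myosin ATPase, showed the largest genotype difference of the members. Its values were 9.34, 8.91, 9.88 and 9.66, with both KO arrays above both WT arrays. The KO mean was higher by 0.64 (SE 0.16), or 1.56-fold, with a limma adjusted p of 0.999 over all genes in the model without diet. With diet as a block, which uses the WT titles, its limma adjusted p was 0.023 and it was the only member called, where 0.0611% of all genes were called higher and 0.0306% lower. With the WT arrays exchanged in that model 0 members were called. Cnn1 was lower with prebiotics by -0.32 (SE 0.08, limma adjusted p = 0.095), which did not pass.

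Cnn2, the calponin found also outside smooth muscle, had 5.18, 4.99, 5.49 and 4.81. Unlike Cnn1 it was lowest on the KO prebiotic array, and its difference within the KO pair was -0.68, next to -0.67 for Synpo2. Tagln (transgelin, an actin cross-linker) had 8.22, 7.89, 8.57 and 8.23, with genotype and prebiotic differences of 0.34 (SE 0.17) and -0.34 (SE 0.09). The KO prebiotic value and the WT value without prebiotics were almost equal in Tagln, so the genotypes barely separated. Cald1, caldesmon, an actin-binding inhibitor of myosin, had 5.73, 5.29, 5.78 and 5.81, so that only the WT array titled with prebiotics stood low. The tropomyosins Tpm1 and Tpm2, which wrap around actin, were lower with prebiotics by -0.17 (SE 0.09) and -0.34 (SE 0.13), and neither passed. Smtn, smoothelin, a marker of contractile muscle, had 6.36, 6.23, 6.50 and 6.49, and Lmod1, a leiomodin that nucleates actin, spanned only 3.28 to 3.53.

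The genes of dense bodies, adhesion and intermediate filaments differed among themselves, with 9 of 11 higher in KO over both diets. With prebiotics 7 of 11 were lower by the WT titles and 5 of 11 with the WT arrays exchanged. Synpo2, synaptopodin 2, an actin-bundling protein of the Z-disc and dense body, had 5.66, 4.77, 5.98 and 5.31. It fell with prebiotics by -0.78 (SE 0.13, limma adjusted p = 0.028, lower in 2 of 2 pairs), or 1.71-fold, and both prebiotic arrays lay below both arrays without prebiotics. Its call was lost without the expression filter (limma adjusted p = 0.066) and without the variance trend (0.088). Its genotype difference was 0.43 (SE 0.32), with overlapping genotypes. Pdlim3, a PDZ-LIM protein that binds alpha-actinin, had 8.60, 7.98, 8.95 and 8.71, with a genotype difference of 0.54 (SE 0.21) and a prebiotic difference of -0.43 (SE 0.10, limma adjusted p = 0.097).

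Des, desmin, the muscle intermediate filament, and Synm, synemin, its partner, shared another order. Des had 7.83, 7.64, 8.02 and 8.38, and Synm had 4.35, 4.12, 4.56 and 4.68. Both were highest on the KO prebiotic array and lowest on the WT array titled with prebiotics, and for both the KO arrays lay above the WT arrays. The genotype difference was 0.47 (SE 0.16) for Des and 0.38 (SE 0.15) for Synm. Within the KO pair the prebiotic array was higher by 0.36 and 0.12, and within the WT pair by title it was lower, with -0.19 and -0.23. Whether the prebiotic difference depends on genotype cannot be tested with 1 array per group.

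Flna, filamin A, which cross-links actin and anchors integrins, had 8.11, 7.80, 8.53 and 8.11, lower on the prebiotic array in each pair (-0.31 in WT and -0.42 in KO). Csrp1, a LIM protein of the contractile phenotype, had 8.03, 7.89, 8.43 and 8.20, with both KO arrays above both WT arrays. The adhesion proteins Vcl (vinculin) and Actn1 (alpha-actinin 1) are expressed in many cell types. Vcl had 8.47, 8.28, 8.41 and 8.19 and Actn1 had 8.48, 8.27, 8.38 and 8.37. Neither followed the genotype order of the rest, with genotype differences of -0.07 (SE 0.13) and 0.00 (SE 0.12). Itga8, the integrin alpha 8 chain, Pdlim7 and Ldb3, a Z-disc PDZ-LIM protein, lay within the lowest range, with genotype differences of 0.10, 0.22 and -0.01.

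The subunits of the large-conductance calcium-activated potassium channel, which relaxes smooth muscle by hyperpolarising it, did not keep the same order. Kcnma1, the pore subunit, had 4.80, 4.68, 5.22 and 4.73, highest on the KO array without prebiotics. Kcnmb1, the regulatory subunit of smooth muscle, had 4.07, 3.91, 4.03 and 4.40, highest on the KO prebiotic array. The prebiotic difference in the KO pair was -0.49 for Kcnma1 and 0.37 for Kcnmb1, and in the WT pair -0.11 and -0.17. Pln, phospholamban, the inhibitor of the calcium pump of the sarcoplasmic reticulum, had 3.36, 3.14, 3.74 and 3.41, with a genotype difference of 0.33 (SE 0.16). Casq2, the calcium-binding calsequestrin of that store, spanned only 3.23 to 3.30.

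Of the transcription regulators, Srf took the opposite course from most members with prebiotics. Srf had 4.38, 4.85, 4.64 and 5.18, higher on the prebiotic array by 0.46 in the WT pair by title and by 0.53 in the KO pair. The model gave 0.50 (SE 0.13, limma adjusted p = 0.128), which did not pass, and with the WT arrays exchanged 0.03. Both prebiotic arrays lay above both arrays without prebiotics, the reverse of Synpo2. Myocd, the muscle-specific coactivator of SRF, had 3.73, 3.62, 3.89 and 3.70, close to background and lower on the prebiotic array of both pairs.

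RefSeq promoter windows of build GRCm38.p6, from 250 bases before to 50 after a gene's start, were at hand for 31 of the 35 members, and none was used for Actg2, Myh11, Tagln and Myocd. A perfect CArG box, the SRF site of 10 bases whose consensus reads the same on both strands, was found in 6 of these 31 genes (19.4%) and in 1.81% of all 27025 genes with a window. With 1 base off allowed, the figures were 14 of 31 (45.2%) and 23.8%. The stretches with a perfect match are shown because these are the members in which the SRF element can be read directly, and capitals mark the box.
Myl9, chr2:156775278-156775337, plus strand: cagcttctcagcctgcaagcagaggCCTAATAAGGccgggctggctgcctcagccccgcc
Myl6, chr10:128493025-128493084, minus strand: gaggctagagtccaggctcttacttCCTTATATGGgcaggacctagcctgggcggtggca
Cnn2, chr10:79988519-79988578, plus strand: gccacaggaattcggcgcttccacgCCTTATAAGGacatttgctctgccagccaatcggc
Vcl, chr14:20929148-20929205, plus strand: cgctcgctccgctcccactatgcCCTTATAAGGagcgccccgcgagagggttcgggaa
Ldb3, chr14:34588682-34588741, minus strand: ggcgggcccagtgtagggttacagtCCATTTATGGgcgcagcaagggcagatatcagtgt
Srf, chr17:46556190-46556269, minus strand: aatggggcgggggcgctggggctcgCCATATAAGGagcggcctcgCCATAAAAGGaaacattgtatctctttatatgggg

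Cnn2 and Vcl carry the same 10 letters, 56 and 227 bases before the start, and Srf carries 2 boxes, at 82 and 62 bases. The box began 161 bases before the start in Myl9, 50 in Myl6 and 35 in Ldb3. The 6 genes did not share a course over the arrays. Their prebiotic differences over both genotypes were -0.45 for Myl9, -0.43 for Cnn2, -0.27 for Myl6, -0.20 for Vcl, 0.10 for Ldb3 and 0.50 for Srf. A match describes the letters only and is no evidence of binding, and a window without one says nothing about SRF at that gene.

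Other genes of smooth muscle signalling and calcium, outside the contractile set, were also mostly higher in KO, with 1 call for prebiotics. Of 44 genes listed, 38 were measured, and 28 of them were higher in KO (median 0.16, 0 called), against 52.9% of all genes. Ppp1r12c, a subunit of myosin phosphatase, had no difference. With prebiotics 26 were lower by the WT titles (median -0.10), against 44.9% of all genes. With the WT arrays exchanged 22 were lower (median -0.02), against 47.6%. Tacr2, the neurokinin receptor that contracts gut muscle, had 4.27, 3.50, 4.95 and 4.16. It fell with prebiotics by -0.78 (limma adjusted p = 0.029), the only one of the 38 called, where 0.26% of all genes were called lower. For Tacr2 both prebiotic arrays lay below both arrays without prebiotics. Next lowest with prebiotics were Ano1, a chloride channel, at -0.59 (limma adjusted p = 0.094) and Abcc9, a subunit of the ATP-sensitive potassium channel, at -0.50 (0.17), and highest were Itga7 at 0.21 and Gata6 at 0.19. Ano1 also stands in the list for interstitial cells of Cajal and Abcc9 in that for pericytes. None of these 4 passed, and with the WT arrays exchanged 0 genes of the whole table were called.

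Lists for the neighbouring cell types of the wall did not all take this course, and their prebiotic counts below follow the WT titles. Of all genes, 52.9% were higher in KO, and 55.1% were higher and 44.9% lower with prebiotics. Of 14 fibroblast and matrix genes, 13 were higher in KO (median 0.27), like the contractile genes. With prebiotics 9 were higher (median 0.18), a count near the share of all genes. Col1a1 was called at 1.19 (limma adjusted p = 0.0018), where 0.994% of all genes were called higher. With the WT arrays exchanged 6 of the 14 were higher (median -0.04). Of 10 macrophage markers, 10 were higher in KO (median 0.27) and 7 higher with prebiotics (median 0.24), or 2 with the WT arrays exchanged (median -0.12). Pericyte markers, which share the vessel wall with smooth muscle, were higher in KO in 5 of 7 (median 0.28) and lower with prebiotics in 5 of 7 (median -0.17), and in 5 of 7 with the WT arrays exchanged (median -0.06). Abcc9 and Kcnj8 of the pericyte list also stand in that of smooth muscle signalling, and both were higher in KO and lower with prebiotics. Of 12 endothelial markers, 6 were higher in KO (median -0.0015) and 7 lower with prebiotics (median -0.05), a count that was 7 on exchange too (median -0.02). The differences between these lists and the contractile genes were not tested.

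For colon epithelium, 12 of 16 measured markers were higher with prebiotics by the WT titles (median 0.10), against 55.1% of all genes, and 10 of 16 with the WT arrays exchanged (median 0.04). By title 2 of the 16 were called, Elf3 (0.55, limma adjusted p = 0.029) and Slc26a3 (0.58, limma adjusted p = 0.00081), where 0.994% of all genes were called higher. The summed linear level of all markers found was 20001 and 20384 on the arrays without prebiotics and 21729 and 21927 on those with them, WT first. This sum too is weighted towards the brightest probe sets, among them Slc26a3, with 11.06, 11.68, 11.19 and 11.72 in the fixed order. The markers did not rise together: 4 of the 16 were lower with prebiotics, the lowest being Krt18 at -0.23, Muc2 at -0.13 and Krt8 at -0.07. By genotype, 5 of 16 were higher in KO (median -0.03), against 52.9% of all genes. The part of the tissue's epithelial share in the prebiotic differences of the contractile genes was not tested. Markers of enteric neurons, 11 of 15 found being measured, reached no more than 4.36, and their median differences were 0.05 for genotype and -0.08 for prebiotics, or 0.0028 on exchange. For interstitial cells of Cajal, the pacemakers of gut muscle, 5 of 7 markers were measured, with medians of 0.12 and -0.11, the latter 0.08 on exchange.

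**Figure D4:**
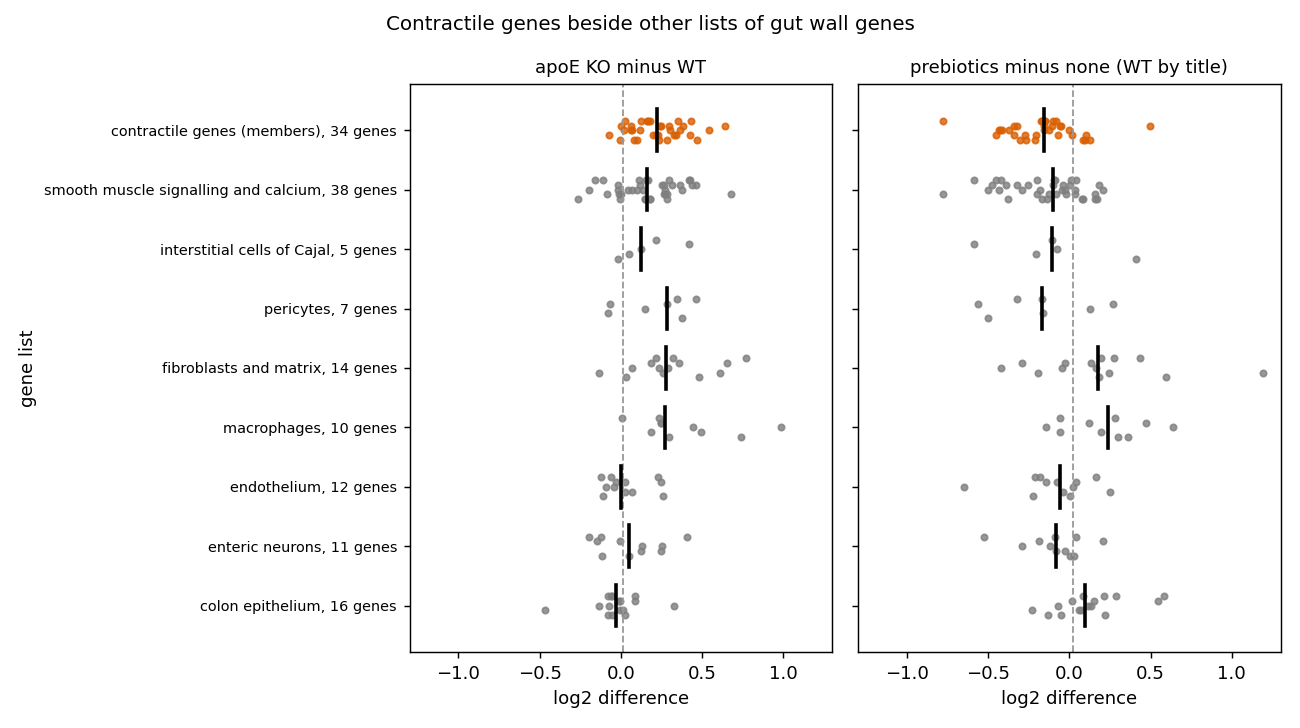
Log2 difference of each measured gene for KO minus WT (left) and for prebiotics minus none with WT by title (right), in the contractile set (orange) and 8 other lists (grey); black bars are list medians and the dashed line is the median of all genes. The contractile median is 0.22 on the left and -0.15 on the right, while fibroblast and macrophage medians lie right of the dashed line in both panels, on the right by the WT titles only.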

How the data were processed

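RNA of caecal tissue was pooled from 6 mice per group, and 100 ng was labelled for 1 array per group. The values deposited by the authors are on a log2 scale and, per the submitters' processing notes, were made with Affymetrix Expression Console and RMA, with no version or setting named. RMA gives log2 values, which is the basis for that scale, and the genome build is not given in the sources used here. Of 41345 probe sets, 23521 had 1 gene symbol, 1814 several and 16010 none in the platform annotation; RefSeq (GRCm38.p6) held 21994 of the 22180 gene identifiers and changed 0 symbols.

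Genotype (2 KO against 2 WT arrays, 2 residual degrees of freedom) and prebiotics (with genotype as a term, 1 residual degree of freedom) were fitted on 13083 genes with limma (lmFit, then eBayes allowing a trend; version 3.58.1, R 4.3.3), two-sided, with Benjamini-Hochberg adjustment over all genes. The error term of the genotype test holds the diet difference, and that of the prebiotic test is the interaction of genotype and prebiotics. In both, eBayes draws it towards the trend over all genes. Pairs of single arrays have no test, and differences of 1.5-fold were counted there. The arrays enter both the genotype and the prebiotic comparisons, which are thus not independent. The number of arrays limits the precision. All 35 members could be named; of the other lists, only called genes and at most the 3 largest differences each way. The members and lists were chosen with earlier results of these data known. On simulated data both tests recovered 200 of 200 genes changed by 1 or 2 log2 units, with more false calls than the nominal 5%. Of the calls, 8.7% were false for genotype and 14.9% for prebiotics. The genotype simulation held no diet difference, so its figures do not describe the genotype test as run here. On the real arrays the genotype test called 0 genes, and Apoe, at -1.02, had a limma adjusted p of 0.78. Recovery of differences as small as those of the members was not tested.

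Alternatives were the 75th percentile as filter, no filter, cyclic loess, averaging of probe sets, centring, no variance trend, diet as a block, the WT arrays exchanged, each array left out, folds of 2 and 1.25, and, added after seeing the data, a filter at 1 median over all arrays and the WT exchange for roles and lists. Differences under 1e-09 log2 units counted as 0. Lists for enteric glia, mesothelium and adipocytes were also computed.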

Additional observations from a re-analysis of the deposited data

Results flagged for a closer look

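Some members moved in opposite directions, by at least 0.1 log2 units each way, in the 2 genotypes or at the 2 diets. With 1 array per group none of these differences was tested, and all of them use the WT titles. The prebiotic difference in KO exceeded that in WT by 0.77 for Ppp1r14a, by 0.56 for Des, by 0.53 for Kcnmb1 and by 0.35 for Synm, each higher with prebiotics in KO and lower in WT. For Pdlim7 it was smaller, by -0.27. The genotype difference with prebiotics less that without was -0.49 for Cnn2, which was higher in KO only without prebiotics, and 0.77 for Ppp1r14a. Ppp1r14a and Pdlim7 lay close to background.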

How the results depend on the processing

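The labels number no replicates, so no block by replicate could be fitted. Calls for genotype stayed at 0 under each alternative run, leaving out any 1 array included (0 to 0), except that diet as a block called 1 (Cnn1). Calls for prebiotics were 3, where 0.26% of all genes were called lower, and 0 with the WT arrays exchanged, where 0% were. They were 0 without the expression filter, 0 without the variance trend and 6 with centring (adding Cnn1, Flna and Pdlim3). With the filter at 1 median over all arrays they were 2, since Myl9 then had a limma adjusted p of 0.051. The shares of all genes called under these last settings are not given here. Their counts, the 6 with centring included, are thus no result about the members. With the WT arrays exchanged Myh11, Myl9 and Synpo2 turned to 0.11, 0.068 and 0.11, and the members' median for prebiotics to 0.028. That median was -0.21 with the filter at the 75th percentile, -0.19 with cyclic loess and -0.19 with centring, and from -0.19 to -0.19 when 1 array was left out, which leaves the pair of the other genotype. The median for genotype was 0.29 with the filter at the 75th percentile and lay between 0.13 and 0.28 when 1 array was left out.

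By exchange the WT pair gave 3 of 33 members lower, and KO exceeded WT with prebiotics in 18 of 34. By title, KO exceeded WT with prebiotics in 29 of 33 members, and in 19 of 22 with the filter at the 75th percentile, where fewer genes were tested. At 2-fold in place of 1.5-fold 0 members were lower in the KO pair and 0 lower in the WT pair. With prebiotics 0 were then higher in KO. At the smaller of the other folds tried these counts were 8, 9 and 12, and 10 were higher in KO without prebiotics. The shares of all genes past either of these other folds are not given here. Their counts are thus no result about the members. The causes of the other changes were not tested. With no replicate arrays, differences of members near background are not well determined.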

Other observations

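Among wall cell types outside the report's comparisons, 3 of 5 measured adipocyte markers were lower with prebiotics by the WT titles (median -0.27), and 1 of 5 with the WT arrays exchanged (median 0.19). Fabp4, a fatty acid carrier of adipocytes and capillary endothelium, was called at -1.09 (limma adjusted p = 0.011), where 0.26% of all genes were called lower. The call was lost with the WT arrays exchanged, where 0 genes were called. Of 5 measured markers of enteric glia, 4 were higher in KO (median 0.08), and of 4 measured mesothelial markers, 3 (median 0.09), with Cpe at 0.75. Only Erbb3 (mean 9.33) of these glial markers lay well above background, and only Krt19 (9.84) and Cpe (5.87) of the mesothelial ones. Krt19 also stands in the epithelial list. Whether these counts describe the named cell types was not tested.

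The second probe sets of Smtn and Kcnma1 had means of 3.18 and 2.63, near or below the probe set median.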
